A study of Mus musculus with 6 samples.

Results

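The genes described here are 10 identity genes of conventional and plasmacytoid dendritic cells, read in cultures of mouse CD4+ T cells stimulated with or without an antibody to the costimulatory receptor ICOS. They are Flt3, Zbtb46, Siglech, Xcr1, Clec9a, Itgax, Cd209a, Batf3, Irf8 and Cst3, and each was taken by symbol from the 19937 genes measured, through its brightest probe set among those with 1 gene symbol. All 10 were found, each with 1 probe set. The genes were chosen by name with the anti-ICOS minus anti-CD3 differences of these arrays in view, and the probe set of each by its mean brightness. Their values in that contrast are therefore a description. Calls given for them below come from fits over all genes and are descriptions too, not tests of single genes.

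Naive CD4+ T cells from B6 spleen had been primed with anti-CD3 and anti-CD28 for 2 days and rested overnight, in both groups. The cells were then coated for 20 min and the bound antibodies were cross-linked with a goat anti-hamster antibody for 8 h. Restimulation was with anti-CD3 and anti-ICOS on 2 arrays and with anti-CD3 alone on 4 arrays, all Affymetrix Mouse Gene 1.0 ST arrays with 1 culture each. The labels call the arrays biological replicates and do not say whether cultures came from separate animals, so errors measure the spread between these arrays, which may be technical. Levels are given as log2(intensity + 16), where the offset makes differences of dim genes smaller.

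Dendritic cells take up, process and present antigen to naive T cells. The conventional cells form a cDC1 branch, which cross-presents antigen to CD8+ T cells and depends on the transcription factors IRF8 and BATF3, and a cDC2 branch, which presents mainly to CD4+ T cells. Plasmacytoid dendritic cells are producers of type I interferon. The cytokine receptor FLT3 drives the development of all of them from bone marrow progenitors, and in spleen they are a small minority beside lymphocytes.

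The labelled cell type was checked first. The T cell genes Cd3e and Cd4 read 12.40 and 12.43, and 11.95 and 12.00, on the anti-ICOS arrays. On anti-CD3 replicates 1 to 4 Cd3e read 12.75, 12.81, 12.72 and 12.45, and Cd4 read 12.45, 12.42, 12.32 and 12.05. Both genes were thus lower on the anti-ICOS arrays than on every anti-CD3 array, and replicate 4 was the lowest of its group in both. Not all T cell genes did so. Of 10 measured, 5 were lower on both anti-ICOS arrays than on every anti-CD3 array, against 14.7% of all genes. Cd3d, Cd3g, Lat and Cd2 differed by -0.033, -0.010, 0.0093 and 0.054, and their groups overlapped. Replicate 4 was below replicates 1 to 3 in 5 of the 10 and above them in 2. Genes of B cells also gave signal on all 6 arrays, such as Ms4a1, which encodes CD20, at 11.67 and 11.80 with anti-ICOS and 11.52, 11.51, 11.36 and 11.81 with anti-CD3. Over the 6 arrays the B cell gene Cd79b read 12.31 to 12.70 and the MHC class II gene H2-Eb1 12.15 to 12.47, near the levels of Cd3e. Other B cell genes were dimmer, down to Vpreb3 at 7.94 to 8.33. Anti-CD3 replicate 4 lay apart from replicates 1 to 3 in many genes, above all 3 in 34.5% and below all 3 in 42.5% of genes. It is therefore shown apart for the 10 lineage genes. For many genes of the other lists only the difference from all 4 anti-CD3 arrays is given, and replicate 4 is not separated there. Across all 34760 probe sets, Pearson's r of its levels was 0.9944 and 0.9946 with the anti-ICOS arrays, against 0.9714, 0.9768 and 0.9652 with the other anti-CD3 arrays, replicates 1, 2 and 3. These are descriptions, since probe sets are not independent and share each array. The array labelled anti-CD3 replicate 4 was thus nearer to the anti-ICOS arrays than to its own group. The labels give no batch, and whether this array was made with the anti-ICOS arrays or carries a wrong label was not tested. Every mean over 4 anti-CD3 arrays includes it. In RNA from whole cultures, more cells of a type and more RNA per cell cannot be told apart.

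The promoters of 5 of the genes are printed to show the sequence beside which the array values stand. Flt3 is the gene with the largest difference, and Itgax and Zbtb46 hold the AP-1 motif TGANTCA. Cst3 is a gene in which anti-CD3 replicate 4 was the lowest array, though near replicate 3, and Xcr1 lay lower with anti-ICOS. Each window runs from 250 bases before to 50 bases after a start site in RefSeq (GRCm38.p6), 5′ to 3′ on the strand of the gene. The windows are chr5:147400440-147400739 (minus strand) for Flt3, chr7:128129300-128129599 (plus strand) for Itgax, chr2:181424339-181424638 (minus strand) for Zbtb46, chr2:148875463-148875762 (minus strand) for Cst3 and chr9:123861980-123862279 (minus strand) for Xcr1. Capitals mark matches to the AP-1 motif TGANTCA or to AGGAAG, a core bound by PU.1, on either strand.
Flt3: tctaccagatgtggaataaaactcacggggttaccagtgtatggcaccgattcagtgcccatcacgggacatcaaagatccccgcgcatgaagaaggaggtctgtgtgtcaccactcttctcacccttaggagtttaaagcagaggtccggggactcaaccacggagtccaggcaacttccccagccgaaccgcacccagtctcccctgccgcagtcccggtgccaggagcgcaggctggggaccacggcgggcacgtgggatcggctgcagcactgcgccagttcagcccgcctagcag
Itgax: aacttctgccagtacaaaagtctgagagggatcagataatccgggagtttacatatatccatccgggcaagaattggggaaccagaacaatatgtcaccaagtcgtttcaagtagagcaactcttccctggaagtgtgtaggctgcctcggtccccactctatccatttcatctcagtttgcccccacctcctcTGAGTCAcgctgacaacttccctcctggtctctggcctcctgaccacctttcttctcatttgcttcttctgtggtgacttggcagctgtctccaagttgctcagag
Zbtb46: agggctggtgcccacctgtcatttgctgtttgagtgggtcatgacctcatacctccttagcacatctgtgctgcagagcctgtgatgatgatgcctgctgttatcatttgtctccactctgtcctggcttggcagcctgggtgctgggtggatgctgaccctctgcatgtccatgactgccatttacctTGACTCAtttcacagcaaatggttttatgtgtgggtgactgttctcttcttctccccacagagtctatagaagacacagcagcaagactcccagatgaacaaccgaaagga
Cst3: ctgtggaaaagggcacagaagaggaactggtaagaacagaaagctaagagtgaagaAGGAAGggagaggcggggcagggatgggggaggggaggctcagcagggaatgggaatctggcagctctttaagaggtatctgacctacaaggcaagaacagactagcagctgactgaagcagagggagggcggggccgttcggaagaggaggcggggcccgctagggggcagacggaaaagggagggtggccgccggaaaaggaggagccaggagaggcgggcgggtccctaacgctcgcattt
Xcr1: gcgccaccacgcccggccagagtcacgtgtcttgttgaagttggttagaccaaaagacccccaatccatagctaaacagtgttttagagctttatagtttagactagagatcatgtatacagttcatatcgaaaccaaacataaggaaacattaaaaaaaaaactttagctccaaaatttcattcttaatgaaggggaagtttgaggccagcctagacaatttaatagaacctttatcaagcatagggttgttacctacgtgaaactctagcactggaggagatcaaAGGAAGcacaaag

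All 10 genes had a promoter in the table. The AP-1 motif occurred in the first window of 2 of them, at position -56 from the start in Itgax and -61 in Zbtb46, against 7.81% of all 32851 promoters of this length. The AGGAAG core occurred in 4 (Cd209a, Batf3, Cst3 and Xcr1), against 35.4% of all promoters. An IRF repeat (GAAA, any 2 bases, GAAA) occurred in 0 of the 10, against 3.44%. An ETS-IRF composite (GGAA, any 2 bases, GAAA) occurred in Cd209a alone, against 2.72%, where it overlaps the AGGAAG match. Both strands were searched. Irf8 has 2 listed start sites and neither window holds a match. The Flt3, Siglech and Clec9a windows likewise hold none of these letters.

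Flt3 had the largest difference of the 10 genes. This receptor tyrosine kinase, found on dendritic cells and on their progenitors, read 8.05 and 8.26 on the anti-ICOS arrays and 6.86, 6.86, 6.89 and 7.00 on anti-CD3 replicates 1 to 4. The groups were separated by a gap of 1.06 and anti-CD3 replicate 4 lay with its group. The means were 8.16 ± 0.15 (SD, n = 2) with anti-ICOS and 6.90 ± 0.066 (SD, n = 4) with anti-CD3, a difference of 1.26 ± 0.087 (SE), or 2.39-fold on this scale. As intensities, Flt3 gave 249.6 and 290.6 with anti-ICOS, against 99.99, 100.1, 102.6 and 111.8 with anti-CD3.

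Of the 10 genes Flt3 alone was called higher and 0 were called lower in the limma fit over all genes (Benjamini-Hochberg adjusted p under 0.05), where 0.271% of genes were called higher and 0% lower. Nothing is read from that count, since the list was made with this contrast known. At an unadjusted p under 0.05, 1245 genes were higher and 1109 lower. The count of called genes among the 10 was 6 without anti-CD3 replicate 4 (Flt3, Zbtb46, Siglech, Itgax, Irf8 and Cst3), but 17.1% of all genes were then called higher. Against anti-CD3 replicate 4 as the only reference, a single array, Flt3 differed by 1.16. The spread in that fit came from replicates 1 to 3 and the anti-ICOS arrays. With array quality weights 7 of the 10 genes were called higher and 1, Xcr1, lower, against 22.8% and 24.4% of all genes. With the replicate number as a block 6 of the 10 were called higher, against 17.0%. Over the 10 genes the median difference was 0.43, against -0.031 over all 19937 genes.

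Siglech, a surface lectin of plasmacytoid dendritic cells, read 7.20 and 6.99 with anti-ICOS and 6.55, 6.55, 6.60 and 6.54 with anti-CD3. The groups did not overlap, replicate 4 was the lowest of the anti-CD3 arrays, and the difference was 0.53 ± 0.080 (SE). Cst3, the gene of the protease inhibitor cystatin C, which dendritic cells carry in quantity but many other cells make as well, read 11.71 and 11.68 with anti-ICOS. On anti-CD3 replicates 1 to 4 it read 11.21, 11.10, 10.87 and 10.81. The groups were again separate, by 0.47, and the difference was 0.70 ± 0.12 (SE). Zbtb46, a zinc finger factor used to mark conventional dendritic cells and their committed precursors, read 7.36 and 7.28 with anti-ICOS and 6.89, 7.00, 6.98 and 7.07 with anti-CD3. Its groups were apart by 0.21 and differed by 0.34 ± 0.078 (SE).

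Itgax and Irf8 behaved otherwise in anti-CD3 replicate 4. Itgax, which encodes the integrin chain CD11c and is also found on macrophages, NK cells and some activated lymphocytes, read 8.07 and 7.94 with anti-ICOS. It read 6.91, 6.78 and 7.10 on anti-CD3 replicates 1 to 3 and 7.74 on replicate 4. Irf8, a factor of cDC1 and plasmacytoid cells that B cells and activated T cells express too, read 11.34 and 11.29 with anti-ICOS. On anti-CD3 replicates 1 to 3 it read 10.70, 10.65 and 10.59, and on replicate 4 11.20. For both genes replicate 4 was the highest of its group and nearer to the anti-ICOS arrays than to the other anti-CD3 arrays, and the groups did not overlap. The differences were 0.87 ± 0.25 (SE) for Itgax and 0.53 ± 0.17 (SE) for Irf8 against all 4 anti-CD3 arrays. They were 0.27 and 0.12 against replicate 4 alone.

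The other genes of the cDC1 and cDC2 branches differed little. Batf3, the AP-1 family partner of IRF8 that is induced in activated T cells as well, read 7.60 and 7.79 with anti-ICOS and 7.42, 7.58, 7.54 and 7.50 with anti-CD3. The arrays were separated by only 0.013 and the difference was 0.18 ± 0.086 (SE). Clec9a, the receptor by which cDC1 cells sense dead cells, read 5.76 and 5.58 with anti-ICOS and 5.63, 5.57, 5.69 and 5.47 with anti-CD3, and the groups overlapped. Cd209a, a lectin of cDC2 cells and monocyte-derived cells, read 6.44 and 6.30 with anti-ICOS and 6.40, 6.16, 6.56 and 6.11 with anti-CD3, and overlapped too. Xcr1, the chemokine receptor of cDC1 cells, read 5.67 and 5.67 with anti-ICOS and 5.93, 5.80, 5.86 and 5.83 with anti-CD3. It was the single gene of the 10 with both anti-ICOS arrays below all anti-CD3 arrays, by a difference of -0.19 ± 0.071 (SE). The differences of Clec9a and Cd209a were 0.078 ± 0.091 and 0.062 ± 0.14 (SE), less than 1 standard error from 0. Clec9a, Cd209a and Xcr1 were dim, with intensities of 28.4 to 38.1, 53.0 to 78.6 and 34.8 to 45.2. Array medians ran from 108.9 to 114.0. Whether the readings of these dim genes lie above background was not measured.

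**Figure D1:**
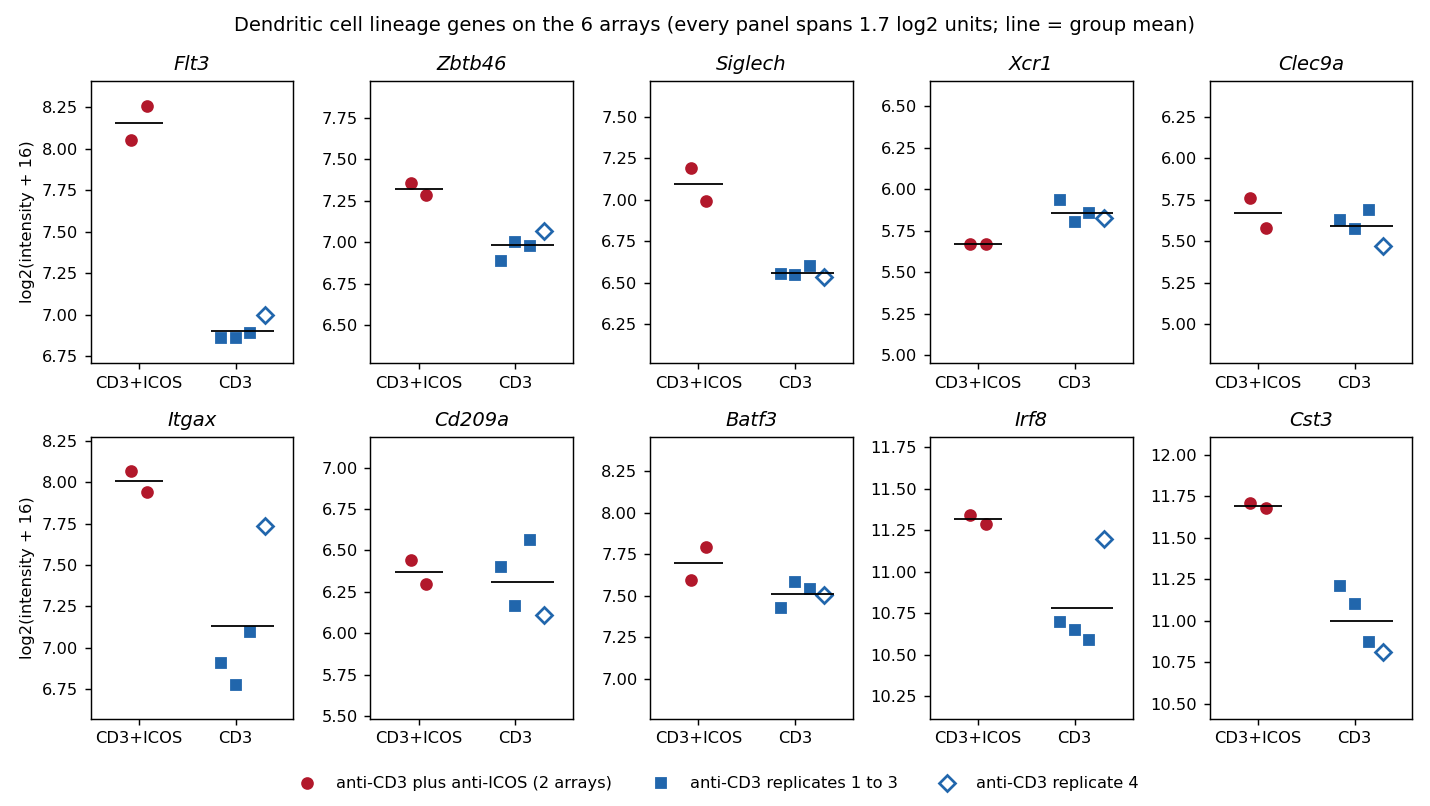
Level of each of the 10 dendritic cell lineage genes as log2(intensity + 16) on the 2 arrays with anti-CD3 and anti-ICOS (circles) and the 4 arrays with anti-CD3 (squares, replicate 4 as an open diamond), with lines at the group means and panels of equal height in log2 units. Flt3 shows the widest gap at 1.06, while replicate 4 stands near the anti-ICOS arrays in Itgax and Irf8.

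Counted over the list, the anti-ICOS arrays were both higher than every anti-CD3 array in 7 of the 10 genes and both lower in 1. Over all genes the shares were 8.51% above and 14.7% below, and nothing is read from the members' counts, for the reason given. Replicate 4 was above replicates 1 to 3 in 4 of the 10 genes (Flt3, Zbtb46, Itgax and Irf8) and below them in 4 (Siglech, Clec9a, Cd209a and Cst3). Over all genes the shares were 34.5% and 42.5%, so these counts are near those of any genes.

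Measured from the average of anti-CD3 replicates 1 to 3, the genes showed different patterns. Flt3 lay higher by 1.29 on the anti-ICOS arrays and by 0.13 in replicate 4, and Zbtb46 by 0.37 and 0.11. Itgax lay higher by 1.08 with anti-ICOS and by 0.81 in replicate 4, and Irf8 by 0.67 and 0.55. Most of the distance from replicates 1 to 3 in Itgax and Irf8 was thus also present in the array labelled anti-CD3 replicate 4. Whether that label is right was not tested. For Cst3 the anti-ICOS arrays were at 0.64 and replicate 4 at -0.25, and for Siglech they were at 0.53 and -0.029. In Cst3 replicates 1 to 3 were themselves spread, and replicate 4 at 10.81 was close to replicate 3 at 10.87. The median over the 10 genes was 0.45 with anti-ICOS and -0.021 in replicate 4, against -0.041 and -0.036 over all genes. The median difference between anti-ICOS and replicate 4 was 0.26, against -0.013 over all genes.

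**Figure D2:**
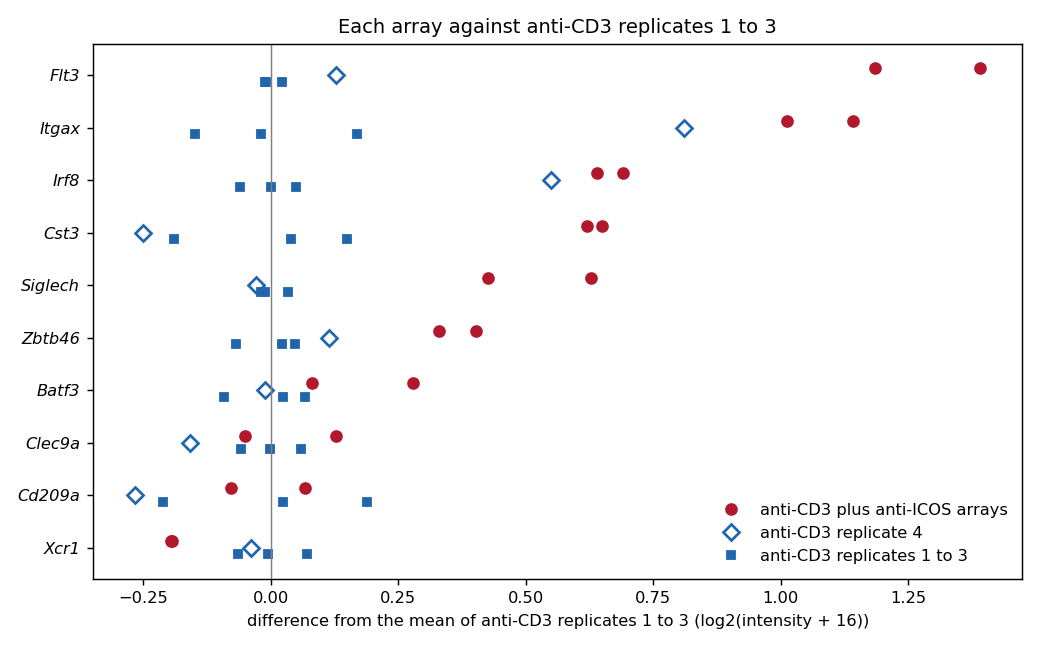
Difference of each array from the average of anti-CD3 replicates 1 to 3, in log2(intensity + 16), for the 10 genes in order of the anti-ICOS mean; circles are the anti-ICOS arrays, open diamonds anti-CD3 replicate 4 and squares replicates 1 to 3. Replicate 4 lies at 0.81 for Itgax and 0.55 for Irf8, near the anti-ICOS arrays, but at 0.13 for Flt3 and -0.25 for Cst3.

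The 2 anti-ICOS arrays were not alike in every gene. Replicate 1 minus replicate 2 was -0.21 for Flt3, -0.20 for Batf3 and 0.20 for Siglech. It was 0.023 for Cst3, 0.051 for Irf8 and -0.0035 for Xcr1. The difference of Flt3 was thus larger on replicate 2 and the higher level of Siglech larger on replicate 1.

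Other genes of the same cells were followed in 3 lists that hold none of the 10 genes, made with earlier results of these data known. Of 34 measured genes, Sirpa and Ccr9 rose and 0 fell, against 0.271% of all genes called higher, and the median difference was 0.093 against -0.031 over all genes. Sirpa, a cDC2 and macrophage receptor for the ligand CD47, read 8.97 and 9.05 with anti-ICOS and 7.70, 7.65, 7.66 and 8.01 with anti-CD3. Its difference was 1.25 ± 0.12 (SE, limma adjusted p = 0.00900). Ccr9, a chemokine receptor of plasmacytoid dendritic cells and of gut-homing T cells, read 8.35 on both anti-ICOS arrays and 7.11, 6.93, 6.84 and 7.07 with anti-CD3. It rose by 1.37 ± 0.095 (SE, limma adjusted p = 0.00321). Leaving out anti-CD3 replicate 1, 2 or 3 or either anti-ICOS array ended the call of Sirpa (limma adjusted p from 0.0621 to 0.127), while Ccr9 was called in each case (limma adjusted p up to 0.0494). Without anti-CD3 replicate 4, 12 of the 34 genes were higher and 0 lower, against 17.1% and 12.7% of all genes.

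Among 10 measured cDC1 genes 0 passed the test, with a median difference of 0.00020, and in 0 of them were the anti-ICOS arrays both higher than every anti-CD3 array. Wdfy4, needed for cross-presentation in cDC1 cells, differed by 0.25 ± 0.12, Gcsam by -0.25 ± 0.12 and the lipid phosphatase gene Plpp1 by -0.16 ± 0.093 (SE, limma adjusted p = 0.423, 0.423 and 0.441). Among 10 cDC2 genes Sirpa passed and the median was 0.20. The lectin gene Mgl2 read 6.13 and 6.04 with anti-ICOS and 5.76, 5.67, 5.65 and 5.67 with anti-CD3, a difference of 0.40 ± 0.072, and the adhesion gene Esam differed by 0.41 ± 0.11 (SE, limma adjusted p = 0.141 and 0.384). Among 14 plasmacytoid genes Ccr9 passed and the median was 0.11. Irf7, a driver of type I interferon genes, differed by 0.46 ± 0.13 and Tlr9, a sensor of CpG DNA that B cells also use, by 0.28 ± 0.099 (SE, limma adjusted p = 0.414 and 0.416). The anti-ICOS arrays were both higher than every anti-CD3 array in 5 of the 10 cDC2 and 6 of the 14 plasmacytoid genes, against 8.51% of all genes.

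Genes of dendritic cell development include the signalling chains and transcription factors that these cells need, many of which T cells and other myeloid cells also use. This list and those that follow were also made with earlier results of these data known, so their counts are descriptions. Of 20 measured genes of this list, 4 rose and 0 fell, against 0.271% and 0% of all genes, with a median of 0.48. They were Csf2rb2 and Csf2rb, chains of IL-3 and GM-CSF receptors, the transcription factor genes Nfil3 and, outside the naming rule, Relb. Csf2rb2 rose by 2.42 ± 0.15, Csf2rb by 2.09 ± 0.21, Nfil3 by 0.82 ± 0.11 and Relb by 0.67 ± 0.087 (SE, limma adjusted p = 0.00232, 0.0157, 0.0450 and 0.0455). As near-identical copies, Csf2rb and Csf2rb2 can share probe signal. Leaving out anti-CD3 replicate 1, 2 or 3 or either anti-ICOS array ended the calls of Csf2rb, Nfil3 and Relb, with limma adjusted p up to 0.150, 0.215 and 0.426. The calls of Nfil3 and Relb also ended with an offset of 64 (0.0917 and 0.0624), and that of Nfil3 with quantile normalization (0.0643). Against replicate 4 as the only reference Nfil3 differed by 0.83 and Relb by 0.54. Without anti-CD3 replicate 4, 13 of the 20 were higher, against 17.1% of all genes.

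Of 14 measured genes of mature dendritic cells, Apol7c and Fscn1 rose and 0 fell, against 0.271% and 0% of all genes. They rose by 3.75 ± 0.18 and 2.49 ± 0.20 (SE, limma adjusted p = 0.00210 and 0.00547), and the list median was 1.10. The call of Fscn1, the gene of the actin bundler fascin, ended without anti-ICOS replicate 2 (limma adjusted p = 0.0641). The ligand gene Pdcd1lg2 differed by 1.44 ± 0.20 (SE, limma adjusted p = 0.0542). Of 9 measured genes of MHC class II presentation 0 passed, with a median of 0.11. In that list the protease gene Ctss differed by 0.31 ± 0.12, the class II transactivator gene Ciita by 0.24 ± 0.11 and H2-Eb1 by 0.13 ± 0.085 (SE, limma adjusted p = 0.416, 0.423 and 0.451). Without replicate 4, 11 of the 14 mature cell genes were higher and 1 lower, and 1 of the 9 class II genes was higher, against 17.1% higher and 12.7% lower of all genes. The class II count is thus no larger a share than that over all genes.

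Signals that T cells give to dendritic cells were listed too, since Flt3l is the ligand of FLT3 and Xcl1 the ligand of XCR1. Of the 12 genes 0 passed the test in either direction, with a median of 0.29. Flt3l read 9.90 and 9.96 with anti-ICOS and 9.77, 9.67, 9.70 and 10.08 with anti-CD3, so replicate 4 was above both anti-ICOS arrays. Xcl1 read 9.77 and 9.66 with anti-ICOS and 8.75, 8.57, 8.55 and 9.62 with anti-CD3. Replicate 4 lay 1.00 above the other anti-CD3 arrays in Xcl1, and 0.092 below the anti-ICOS mean. Ifng differed by 1.39 ± 0.34, Csf1 by 0.38 ± 0.076 and Tnf by 0.45 ± 0.15 (SE, limma adjusted p = 0.327, 0.188 and 0.414). Replicate 4 minus the mean of replicates 1 to 3 was 1.12 for Ifng, -0.018 for Csf1 and 0.45 for Tnf. Without replicate 4, 7 of the 12 were higher, against 17.1% of all genes.

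**Figure D3:**
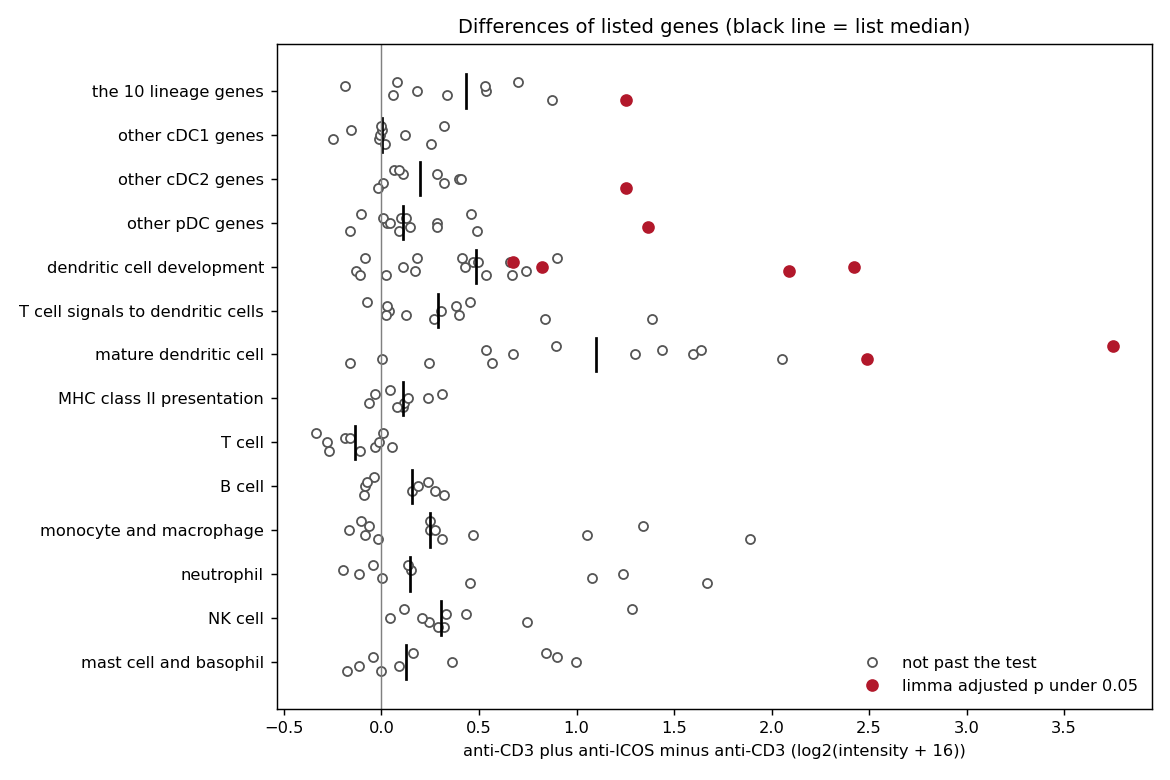
Mean of the anti-ICOS arrays minus mean of the anti-CD3 arrays in log2(intensity + 16) for each measured gene of the 10 lineage genes and 13 further lists, with filled circles for genes past the limma test over all genes and black lines at list medians. The median is 0.43 for the lineage genes, 0.00020 for other cDC1 genes, 1.10 for mature dendritic cell genes and -0.14 for T cell genes.

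The summed signal of other cell types' markers also varied between the arrays. Intensities of monocyte and macrophage genes (13 of 14 measured) summed to 1678 and 2394 on the anti-ICOS arrays, against 1118, 1128, 1176 and 1579 on anti-CD3 replicates 1 to 4. Within these sums Lyz2 gave 338.5 and 795.9 with anti-ICOS, and 88.7, 87.8, 92.8 and 354.5 with anti-CD3. Adgre1 gave 201.6 and 297.7 with anti-ICOS, and 57.9, 56.7, 61.0 and 257.8 with anti-CD3. Neutrophil genes (10 of 10) summed to 671 and 1489 with anti-ICOS, against 571, 541, 641 and 503 with anti-CD3. Within the sum of 1489, Mpo gave 538.5, Elane 371.1 and Ngp 210.1. Both lists were thus highest on anti-ICOS replicate 2, and replicate 4 was the highest anti-CD3 array in the first and the lowest in the second. NK cell genes (10 of 10) summed to 8173 and 8315 with anti-ICOS, against 6526, 6612, 6329 and 8184 with anti-CD3. Mast cell and basophil genes (10 of 10) summed to 687 and 854 with anti-ICOS, against 529, 532, 573 and 508 with anti-CD3. B cell genes (9 of 10) summed to 21145 and 23402 with anti-ICOS, against 20643, 21356, 19189 and 23315 with anti-CD3. T cell genes (10 of 12) summed to 31508 and 32611 with anti-ICOS, against 36255, 37277, 34845 and 33416 with anti-CD3, and were lower on both anti-ICOS arrays than on any other. No marker is listed at 0 in this table, whose lowest intensity is 7.23. Their part in the values of the lineage genes was not tested. In the order of these 6 lists the median differences were 0.25, 0.14, 0.30, 0.13, 0.16 and -0.14, and 0 genes passed the test in any of them. Without anti-CD3 replicate 4 the same lists held 5, 3, 8, 4, 4 and 0 higher genes, with 1 lower mast cell and basophil gene and 5 lower T cell genes, against 17.1% higher and 12.7% lower of all genes. The count of 1 lower gene among 10 mast cell and basophil genes is near that share.

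Not every member of these lists was higher with anti-ICOS. Camp differed by -0.20 and Ly6g by -0.12 among neutrophil genes, and Cma1 by -0.17 and Tpsb2 by -0.11 among mast cell and basophil genes. Among monocyte and macrophage genes Marco differed by -0.17, Fcgr1 by -0.10, Cd163 by -0.085, C1qa by -0.064 and C1qc by -0.019. Both anti-ICOS arrays were above all anti-CD3 arrays in 5 of 10 neutrophil genes and 5 of 10 mast cell and basophil genes. The same held in 4 of 13 monocyte and macrophage genes, against 8.51% of all genes. Both were below all anti-CD3 arrays in 1 neutrophil, 0 mast cell and basophil and 1 monocyte and macrophage gene, against 14.7%. The members with the smallest p in each list were as follows. Csf1r, the receptor of the macrophage growth factor, read 6.70 and 6.85 with anti-ICOS and 6.29, 6.27, 6.47 and 6.19 with anti-CD3 (difference 0.47 ± 0.097), Cd68 differed by 0.31 ± 0.093 and Ccr2 by 1.05 ± 0.26 (SE, limma adjusted p = 0.200, 0.414 and 0.337). The neutrophil granule genes Mpo and Elane read 7.27 and 9.12, and 7.17 and 8.60, on the 2 anti-ICOS arrays, against 6.39 to 6.73 and 6.75 to 6.84 with anti-CD3 (limma adjusted p = 0.367 and 0.414). Anti-ICOS replicate 2 was thus the higher for both, and S100a8 differed by 0.46 ± 0.13 (SE, limma adjusted p = 0.399). Among NK cell genes the adaptor gene Tyrobp, also of myeloid cells, differed by 1.29 ± 0.21, Ncr1 by 0.75 ± 0.10 and Gzma by 0.43 ± 0.12 (SE, limma adjusted p = 0.0958, 0.0514 and 0.382). Kit, the receptor of stem cell factor, differed by 0.90 ± 0.13, Cpa3 by 1.00 ± 0.18 and Mcpt8 by 0.84 ± 0.20 (SE, limma adjusted p = 0.0574, 0.136 and 0.296). The B cell genes Blk, Ms4a1 and Cd79b differed by 0.32, 0.19 and 0.16, and the T cell gene Cd28 by -0.28, with limma adjusted p of at least 0.414.

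The genes nearest in pattern were sought for Flt3 and Itgax, the members whose highest and lowest arrays differed by at least 1. The measure was the root mean square distance over the 6 arrays after centring each gene on its mean, among 612 other genes of such a range. Sirpa was nearest to Flt3 at 0.086, followed by Ccdc88a at 0.11 and Hmox1, the gene of heme oxygenase 1, at 0.11. Nearest to Itgax were Snora69 at 0.071, Lrrc32 at 0.078 and Cacna1e at 0.079. All 3 neighbours of Itgax shared its high value in anti-CD3 replicate 4, as with Lrrc32 at 9.49 and 9.38 with anti-ICOS, against 8.25, 8.37, 8.50 and 9.20 with anti-CD3.

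**Figure D4:**
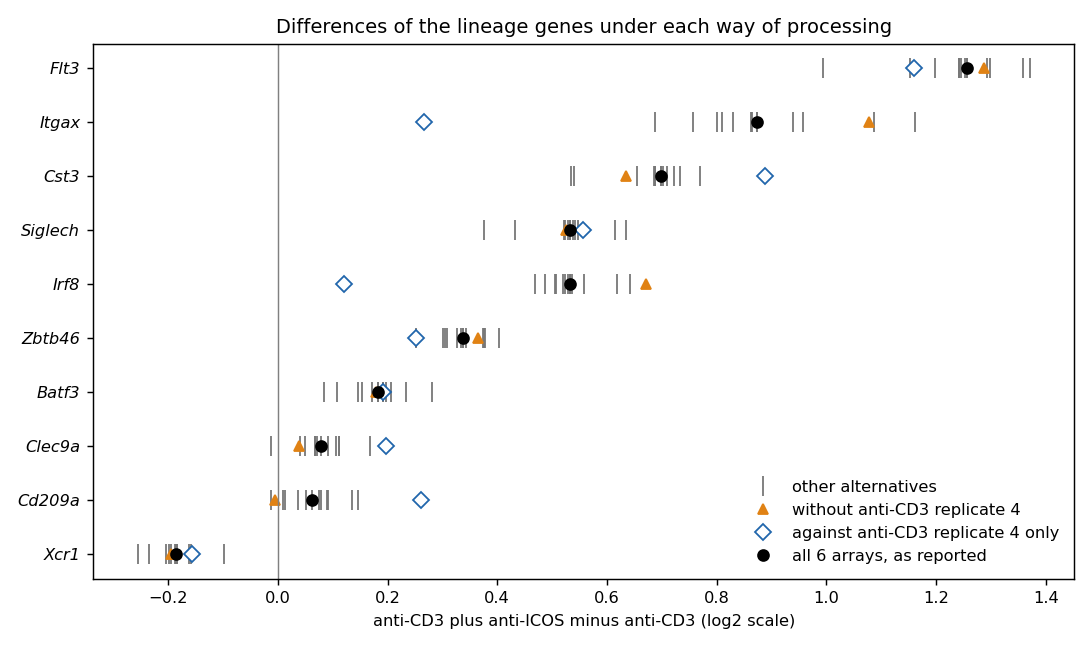
Difference of each lineage gene between the anti-ICOS arrays and the anti-CD3 arrays, in log2 units, with all 6 arrays (filled circles), without anti-CD3 replicate 4 (triangles), against replicate 4 only (open diamonds) and under the other alternatives (ticks). Flt3 stays between 0.99 and 1.37, while Itgax lies at 0.27 and Irf8 at 0.12 against replicate 4 only.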

How the data were processed

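Total RNA (1 ug per the labels' protocols) was labelled with biotin and read on 1-colour Affymetrix arrays. The values the authors deposited are normalized intensities on a linear scale, from 7.23 to 22176, with array medians from 108.9 to 114.0. Per the submitters' processing notes a tool called MAS5 was used. How values were normalized, background-corrected and summarised is not given in the sources used here. Any centring is unknown, and no detection call was used. Precision is limited by the number of arrays.

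The platform annotation gave 1 gene symbol for 21640 of 34760 probe sets and several for 1321, and 11799 were unnamed here. Entrez IDs of 21553 matched RefSeq, and 0 symbols needed an update. The brightest probe set stood for a gene, which gave 19937 genes. Values were analysed as log2(intensity + 16), and the groups were compared by lmFit and eBayes of limma 3.58.1 (R 4.3.3, 4 residual df), two-sided, with Benjamini-Hochberg adjustment over all genes, a threshold of 0.05 and no filter. Differences are anti-ICOS minus anti-CD3. The fit was tested on simulated data with independent noise on each array. That simulation held no shift of a whole array, so it does not bear on anti-CD3 replicate 4.

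The 10 genes and the 13 further lists (161 of all 173 entries measured) were chosen with earlier results of these data known. Named are the 10 genes, the 3 genes of smallest p per list, Cd3e, Cd4, Flt3l and Xcl1, and 3 neighbours in pattern of each gene with a range of at least 1. Relb, single genes of small counts, and further genes given beside the named ones were named after their values were seen. The further genes are of the T cell, B cell, monocyte and macrophage, neutrophil, and mast cell and basophil lists. The 15 alternatives were median centring, quantile normalization, leaving out the dimmest 40% of genes, offsets of 1 and 64, the mean of probe sets, array weights, the replicate number as block, leaving out each of the 6 arrays, and anti-CD3 replicate 4 as the only reference. Plots used matplotlib 3.10.9 in Python 3.11.15.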

Additional observations from a re-analysis of the deposited data

Results flagged for a closer look

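None of the 10 lineage genes had an anti-CD3 array apart from its group, taken as a gap to its neighbour, divided by the group's range, above Dixon's 95% limit for 4 arrays. Of 56 genes named by rule 3 did, where chance gives about 1 in 20. They were Sirpa in anti-CD3 replicate 4 at 8.01, Blk in anti-CD3 replicate 4 at 10.32 and Ciita in anti-CD3 replicate 3 at 9.05. Over all genes 8.69% passed this limit, and in 1197 of those 1732 genes the array was replicate 4. Irf8, also with replicate 4, came close at 0.814.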

How the results depend on the processing

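Over the 15 alternatives the differences of Flt3 ran from 0.99 to 1.37. It was called in every alternative that kept more than a single array in each group. Calls from fits with a single array in a group are not counted here. The alternatives share the same arrays, and the list was made with this contrast known. The calls of single genes given here are therefore descriptions, and their repetition adds no independent support. Of the other lineage genes, Zbtb46, Siglech, Itgax, Irf8 and Cst3 were called under 3 alternatives (array weights, the replicate block and without anti-CD3 replicate 4), Xcr1 and Batf3 with array weights alone, and Clec9a and Cd209a under none. The signs of Clec9a (-0.012 at its lowest) and Cd209a (-0.012) changed under some alternatives, and those of the other 8 genes under none. The filter on dim genes kept 7 of the 10 and removed Xcr1, Clec9a and Cd209a, so no median was taken there.

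Genes called higher numbered 35 against replicate 4 only, 4543 with array weights, 28 with an offset of 64 and 3389 with the replicate block, and from 16 to 3404 with an array left out. Genes called lower numbered 4870 with array weights, 3162 with the replicate block, and from 0 to 2526 with an array left out. The lineage genes called higher were 7 with array weights, 6 with the replicate block and 1 to 6 with an array left out. Related dendritic cell genes called higher were 13 with array weights, 12 with the replicate block and 1 to 12 with an array left out. The median of the lineage genes was 0.26 against replicate 4 only, 0.31 with an offset of 64 and 0.37 to 0.47 with an array left out. Of the arrays left out in turn, anti-CD3 replicate 4 gave the highest counts, and the cause was not tested. The array weights were 4.53, 1.07, 0.38 and 0.15 for anti-CD3 replicates 1 to 4. In the replicate block, replicates 3 and 4 have no partner and drop out of the comparison. Deviations of arrays with the same number from their group means correlated at -0.039 and 0.10 over genes. With 2 anti-ICOS arrays these deviations mirror each other, so the correlations cannot show whether the numbers pair the arrays. No detection call was used, so what dim signal limits was not measured.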
